A study of Mus musculus with 4 samples.

Results

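The 37 genes described here encode proteins that release and recycle synaptic vesicles at presynaptic nerve terminals. They were chosen by symbol as a list of SNARE proteins and their regulators, synaptotagmins, vesicle proteins, Rab3 GTPases, active zone proteins, vesicular glutamate transporters and endocytic proteins. The choice was made with earlier results of these data known, so the list was not tested as a set and its counts and medians are descriptions. All 37 were found among the 22096 gene symbols of the tables, and all 37 passed the filter of a mean of at least 1 FPKM (fragments scaled to transcript length and to the mapped fragments of a library) that left 12913 genes in the test. RNA was measured by sequencing in spinal cord of mice at postnatal day 8, in 2 cKO and 2 Ctrl libraries. The cKO animals were Chd7f/f; Olig1-cre and the Ctrl animals Chd7f/+; Olig1-cre, on a background given as mixed. All 4 libraries thus came from animals in which Olig1, active in the oligodendrocyte lineage, drives Cre recombinase, and that carried at least 1 floxed allele of Chd7, a chromatin remodeler. In which cells of these cords Cre acted was not measured, and action in neurons as well as in oligodendrocyte lineage cells is possible. The labels do not say whether each library came from a separate animal, so the p-values measure only the spread between these libraries. That spread is mostly pooled over genes (36.3 prior and 2 residual degrees of freedom).

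At a nerve terminal, vesicles are filled with transmitter, docked at the active zone by scaffold proteins and Rab3, and primed by Unc13 proteins. Calcium binding to synaptotagmin then lets SNARE proteins of the vesicle and the plasma membrane zip together and fuse the membranes. Nsf and its adaptors take the spent SNARE complexes apart, and dynamin, amphiphysins, endophilin and synaptojanin retrieve the membrane. In the spinal cord of this age, synapses of descending, sensory and local axons are forming while oligodendrocytes begin to wrap axons with myelin.

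Relative sequencing depth ran from 1.0 in Ctrl 2 to 3.19 in cKO 2, so Ctrl 2 was the shallowest library. Chd7 was at 2.52 and 3.38 FPKM in cKO libraries, against 3.52 and 3.12 FPKM in Ctrl libraries (log2 fold change -0.13 ± 0.16, SE, limma adjusted p = 0.657). The deleted part is not given in the labels, so this level checks the genotypes little. Neuronal tissue was recognisable from its markers, with summed neuron markers between 3493 and 5261 FPKM in all 4 libraries. These markers do not tell spinal cord from brain. Of 14 oligodendrocyte markers 13 fell, and their sum was 6799 and 10652 FPKM in cKO libraries, against 16753 and 19034 FPKM in Ctrl libraries. Xist was at 19.6 and 0.23 FPKM in cKO libraries, against 55.6 and 51.8 FPKM in Ctrl libraries, and Y-linked Ddx3y reached 11.6 FPKM in cKO 2 only, with at most 0.19 FPKM in the other libraries. Of 7 meningeal markers 6 fell, with sums of 32.1 and 34.9 FPKM in cKO libraries, against 260 and 55.6 FPKM in Ctrl libraries, so Ctrl 1 held most of that signal. Sex and genotype are therefore partly mixed, which touches the X-linked members Syn1 and Syp, and the part of sex in any result was not tested.

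Most of the presynaptic genes lay slightly higher in cKO cords, and 1 of them, Rab3b, passed the test. The log2 fold change, cKO minus Ctrl on log2(FPKM + 1), was above 0 for 33 of the 37 genes, with a median of 0.25, beside a median of -0.00277 over all 12913 genes tested. In limma with Benjamini-Hochberg adjustment at 0.05, 1 of the 37 rose and none fell, beside 4.13% of all genes that rose and 6.54% that fell, so the count called was no larger than the background. At an unadjusted limma p under 0.05, 11 of the 37 were higher and none lower, beside 10.4% and 13.8% of all genes. Both cKO libraries lay above both Ctrl libraries for 20 of the 37 genes, beside 24.3% of all genes, and below both for 3, beside 29.3% of all genes. The differences were small, and 1 of the 37 genes reached 1.5-fold in either direction, beside 6.24% of all genes.

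**Figure D1:**
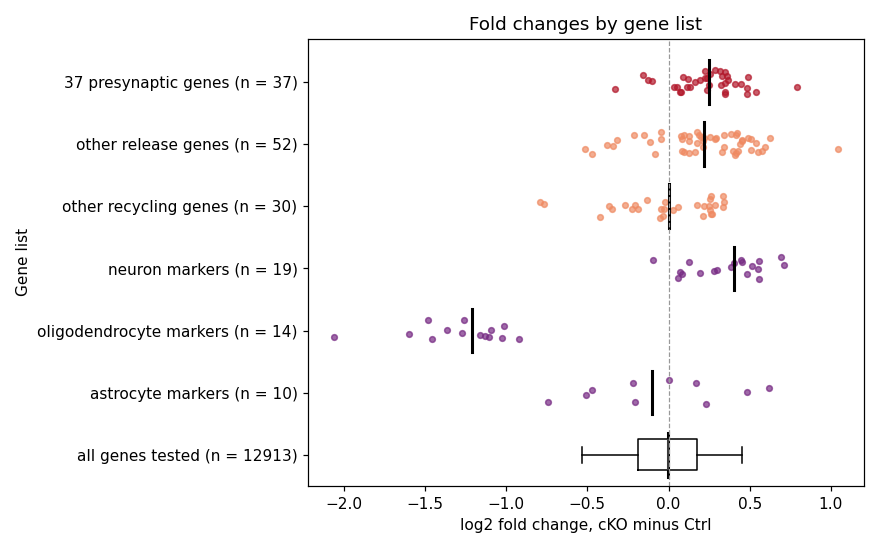
Log2 fold change, cKO minus Ctrl, of each gene of a list (points), with the median of the list as a black bar; the bottom box shows all 12913 genes tested (quartiles, whiskers at the 5th and 95th percentiles). The 37 presynaptic genes centre on 0.25, the 52 other release genes on 0.22, the neuron markers on 0.40 and the oligodendrocyte markers on -1.21.

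The size of the shift depended on single libraries. The median of the 37 genes was 0.14 without cKO 1 and 0.11 without Ctrl 2, against 0.35 without cKO 2 and 0.38 without Ctrl 1. By limma, 0 of the 37 rose without cKO 1, beside 0.827% of all genes, and 4 rose without cKO 2, beside 4.29%. Without Ctrl 1, 4 of the 37 rose, beside 3.61% of all genes, and without Ctrl 2 1 rose, beside 4.17%. Relative to the Ctrl mean, the median gene was at 0.35 in cKO 1 and at 0.14 in cKO 2. In 30 of the 37 genes cKO 1 was the highest of the 4 libraries, which it was in 37.2% of all genes. In 27 of the 37 genes Ctrl 2 was the lowest, which it was in 25.6% of all genes. The genes thus moved together across libraries of the same genotype as well as between genotypes.

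**Figure D2:**
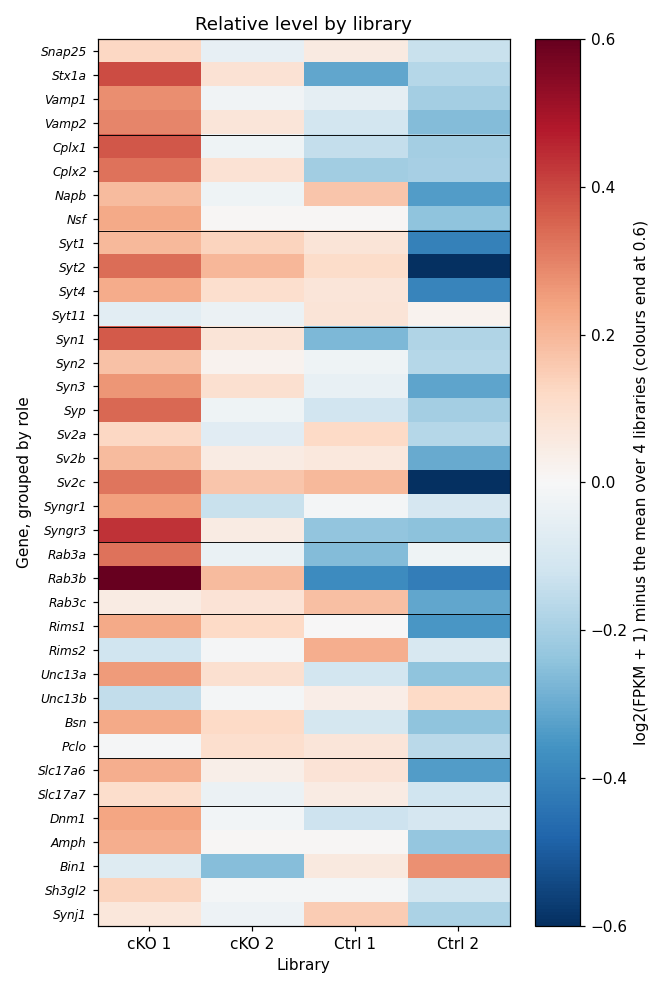
Level of the 37 genes in each library, as log2(FPKM + 1) minus the mean of the gene over the 4 libraries, with lines between the groups of roles. cKO 1 is the highest library in 30 genes and Ctrl 2 the lowest in 27; Bin1, Syt11, Rims2 and Unc13b run the other way.

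Most neuron markers, none of them among the 37 genes, moved in the same direction as the presynaptic genes. Of 19 neuron markers tested, 18 lay above 0, with a median of 0.40, and 2 (Gap43 and L1cam) rose. Neuron markers made up 1.45% and 1.32% of the summed FPKM in cKO libraries, against 1.06% and 1.05% in Ctrl libraries, and the 37 presynaptic genes 1.01% and 0.933%, against 0.899% and 0.786%. Oligodendrocyte markers made up 1.87% and 3.23% of the summed FPKM in cKO libraries, against 5.09% and 5.46% in Ctrl libraries. FPKM is relative to the library total, and in bulk tissue more cells of a type and more RNA per cell cannot be told apart. The part of these shares in the shift of the presynaptic genes was not tested.

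The promoter windows of 3 members are shown because Rab3b was the gene that rose and because Syn1 and Unc13a were the members whose window held a piece of the RE1 element, the site through which the REST repressor is known to silence neuronal genes outside neurons. The windows run from 250 bases before to 50 bases after the annotated start (RefSeq, GRCm38.p6), and capitals mark matches on either strand to TTCAGCACC, to the second piece of RE1 or to TGACGTCA.
Rab3b (chr4:108878820-108879119, + strand): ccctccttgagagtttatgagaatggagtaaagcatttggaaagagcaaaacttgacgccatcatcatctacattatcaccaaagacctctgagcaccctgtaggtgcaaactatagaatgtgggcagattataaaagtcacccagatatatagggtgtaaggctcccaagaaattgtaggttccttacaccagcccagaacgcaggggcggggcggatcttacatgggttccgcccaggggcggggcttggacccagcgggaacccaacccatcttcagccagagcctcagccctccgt
Syn1 (chrX:20920869-20921168, - strand): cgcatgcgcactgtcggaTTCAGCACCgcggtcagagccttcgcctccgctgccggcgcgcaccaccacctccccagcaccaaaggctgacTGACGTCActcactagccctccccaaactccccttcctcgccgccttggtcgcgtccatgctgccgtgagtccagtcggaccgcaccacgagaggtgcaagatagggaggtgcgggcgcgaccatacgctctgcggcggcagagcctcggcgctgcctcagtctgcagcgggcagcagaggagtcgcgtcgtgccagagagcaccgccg
Unc13a (chr8:71671708-71672007, - strand): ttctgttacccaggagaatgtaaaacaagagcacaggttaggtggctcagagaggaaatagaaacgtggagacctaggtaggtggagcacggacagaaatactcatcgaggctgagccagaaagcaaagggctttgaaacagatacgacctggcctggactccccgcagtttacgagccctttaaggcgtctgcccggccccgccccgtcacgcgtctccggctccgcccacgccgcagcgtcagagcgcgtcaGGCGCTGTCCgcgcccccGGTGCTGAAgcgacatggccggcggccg

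Promoter windows were found for 30 of the 37 genes, 39 windows in all. TTCAGCACC, the first piece of RE1, was in 2 of the 39 windows (Syn1 and Unc13a) and in 0.371% of all 32851 windows. The second piece of RE1, the first run of capitals in the Unc13a window, was in 1 window (Unc13a) and in 0.137% of all windows. In Unc13a both pieces lay on the opposite strand just after the start, 8 bases apart. An exact match to the joined canonical RE1 form was in none of the 39 windows and in 0.0122% of all windows. In the Syn1 window the first piece is followed, at the spacing of the joined form, by bases that differ from that form at 1 position. Syn1 thus holds a near match to the joined form. Near matches were not counted in the other windows. TGACGTCA, the cAMP response element, was in 2 windows (Syn1, beginning 159 bases before the start, and Sh3gl2, beginning 37 bases before it) and in 1.79% of all windows. The motifs do not overlap each other in these windows, and a match is a description of letters and not a bound site.

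The SNARE proteins form the fusion complex itself, with Snap25 and Stx1a on the plasma membrane and Vamp1 and Vamp2 on the vesicle. All 4 lay above 0 (median log2 fold change 0.31) and none passed the test. Stx1a, syntaxin 1A (chromosome 5, 135499442 to 135526969 on mm9), was at 39.5 and 31.7 FPKM in cKO libraries, against 23.8 and 26.4 FPKM in Ctrl libraries. The groups did not overlap, and the log2 fold change of 0.48 ± 0.16 (SE) lay just short of the threshold (limma adjusted p = 0.0508). Vamp2, the main vesicle SNARE of the brain, was at 285 and 245 FPKM in cKO libraries and 215 and 194 FPKM in Ctrl libraries (0.37 ± 0.21, limma adjusted p = 0.302). Vamp1, its paralog common in the spinal cord, was at 298 and 242 FPKM in cKO libraries and 236 and 213 FPKM in Ctrl libraries (0.26 ± 0.22, limma adjusted p = 0.512). Snap25 was at 342 and 303 FPKM in cKO libraries and 326 and 285 FPKM in Ctrl libraries, and these groups overlapped (0.078 ± 0.23, 95% interval -0.38 to 0.54). Vamp1 and Vamp2 were thus at nearly equal levels per length in all 4 libraries.

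Complexins clamp and then assist the assembled SNARE complex, and Nsf with its adaptor Napb (beta-SNAP) takes it apart after fusion. All 4 of these genes lay above 0 (median 0.29) and none passed. Cplx1, the member with the highest mean FPKM in cKO libraries, was at 395 and 299 FPKM in cKO libraries, against 276 and 265 FPKM in Ctrl libraries (0.35 ± 0.23, limma adjusted p = 0.375). Cplx2 was at 68.6 and 58.0 FPKM in cKO libraries, against 47.1 and 47.4 FPKM in Ctrl libraries (0.41 ± 0.17, limma adjusted p = 0.123). For both complexins the cKO libraries lay above both Ctrl libraries, as they did for 24.3% of all genes. Cplx1 kept 83.8% to 85.4% of the summed FPKM of the complexins in every library. Nsf was at 148 and 127 FPKM in cKO libraries and at 126 and 106 FPKM in Ctrl libraries, and Ctrl 1 lay only just below cKO 2. Napb was at 60.9 and 52.2 FPKM in cKO libraries and at 59.9 and 42.0 FPKM in Ctrl libraries, and overlapped.

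Synaptotagmins 1 and 2 are the fast calcium sensors of release, of which Syt2 predominates in hindbrain and spinal cord of older animals, while Syt4 and Syt11 do not bind calcium in the same way. Syt2 (chromosome 1, 136543258 to 136645994 on mm9) was at 43.0 and 39.0 FPKM in cKO libraries, against 36.6 and 21.2 FPKM in Ctrl libraries. Its log2 fold change of 0.54 ± 0.18 did not pass (limma adjusted p = 0.0521), and the gap between the Ctrl libraries was wider than that between the nearest cKO and Ctrl libraries. Without Ctrl 1 the difference was 0.91 ± 0.22 (limma adjusted p = 6.90e-04), and without Ctrl 2 it was 0.16 ± 0.22 (limma adjusted p = 0.729). Syt1 was at 57.5 and 55.1 FPKM in cKO libraries and 52.8 and 37.5 FPKM in Ctrl libraries (0.33 ± 0.18, limma adjusted p = 0.249). Syt4 was at 28.2 and 25.8 FPKM in cKO libraries and 25.3 and 18.0 FPKM in Ctrl libraries (0.32 ± 0.17, limma adjusted p = 0.226). In all 3 genes the Ctrl 2 library was the lowest by a wide margin. Syt11 ran the other way without overlap, at 149 and 152 FPKM in cKO libraries and 165 and 158 FPKM in Ctrl libraries (-0.10 ± 0.20, limma adjusted p = 0.810). Syt1 exceeded Syt2 in every library, with Syt2 holding 42.8% and 41.4% of their summed FPKM in cKO libraries and 40.9% and 36.1% in Ctrl libraries.

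**Figure D3:**
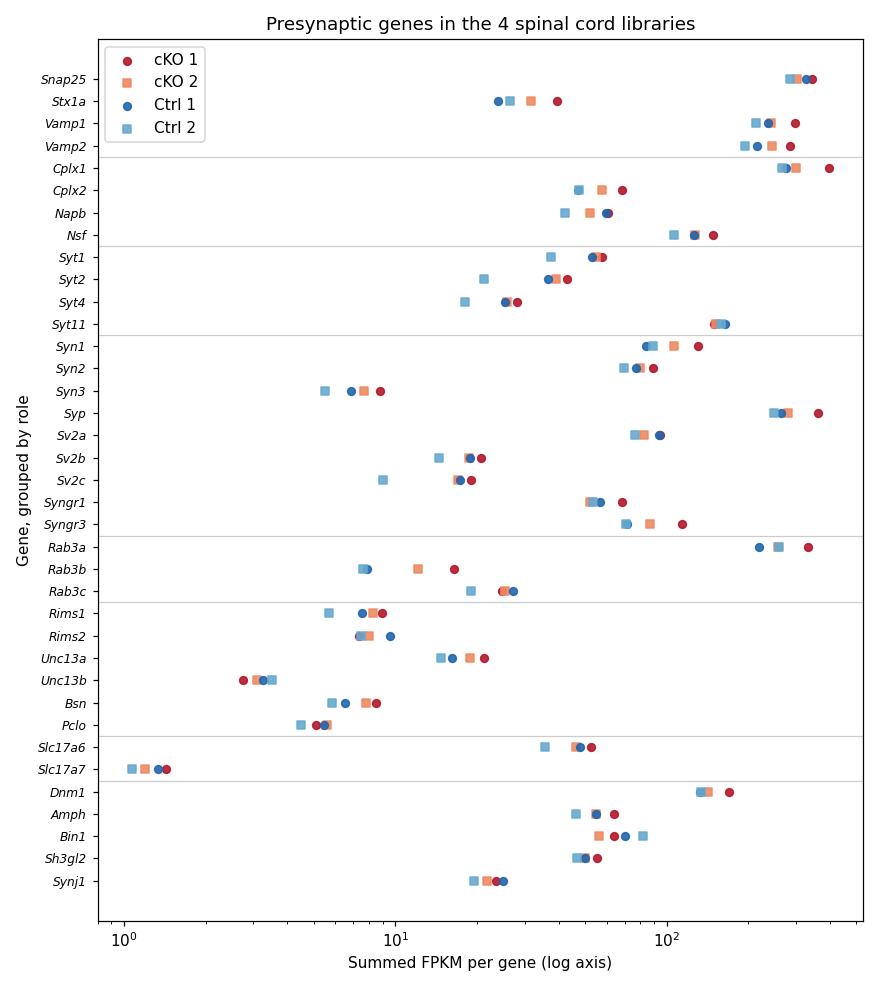
Summed FPKM of each of the 37 genes in the 4 libraries, on a log axis, with red marks for cKO and blue marks for Ctrl. Levels span from about 1 FPKM for Slc17a7 to 395 FPKM for Cplx1 in cKO 1, and the marks of a gene lie close together beside that span.

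Among the proteins of the vesicle membrane and its coat, all 9 genes lay above 0 (median 0.32) and none passed. Syn1, synapsin 1, which tethers vesicles in the reserve pool, was at 131 and 107 FPKM in cKO libraries, against 83.7 and 89.2 FPKM in Ctrl libraries (0.45 ± 0.19, limma adjusted p = 0.125). Syn2 was at 88.6 and 79.6 FPKM in cKO libraries and 77.1 and 69.6 FPKM in Ctrl libraries, and Syn3 at 8.78 and 7.68 FPKM in cKO libraries and 6.88 and 5.52 FPKM in Ctrl libraries. For all 3 synapsins both cKO libraries lay above both Ctrl libraries, as they did for 24.3% of all genes. Syngr3, a synaptogyrin, was at 114 and 87.0 FPKM in cKO libraries, against 71.2 and 70.9 FPKM in Ctrl libraries (0.48 ± 0.18, limma adjusted p = 0.0881). Its paralog Syngr1 overlapped, at 68.4 and 52.2 FPKM in cKO libraries and 56.9 and 53.5 FPKM in Ctrl libraries (0.11 ± 0.18). Syngr3 made up 62.5% of the pair in both cKO libraries, against 55.6% and 57.0% in Ctrl libraries.

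Syp, synaptophysin, an abundant vesicle membrane protein, was at 362 and 280.4 FPKM in cKO libraries, against 263 and 248 FPKM in Ctrl libraries (0.32 ± 0.23, limma adjusted p = 0.414). The Sv2 proteins are transporter-like glycoproteins of the vesicle. Sv2c was at 19.0 and 17.0 FPKM in cKO libraries and 17.4 and 8.998 FPKM in Ctrl libraries (0.49 ± 0.18, limma adjusted p = 0.0815), and Ctrl 1 lay between the cKO libraries. Without Ctrl 1 its difference was 0.93 ± 0.19 (limma adjusted p = 5.29e-05) and without Ctrl 2 it was 0.047 ± 0.19 (limma adjusted p = 0.922), so the value rests on Ctrl 2. Sv2b was at 20.7 and 18.7 FPKM in cKO libraries and 18.9 and 14.5 FPKM in Ctrl libraries. Sv2a, the most abundant of the 3 in each library, was at 94.1 and 82.1 FPKM in cKO libraries and 93.8 and 76.4 FPKM in Ctrl libraries, and its log2 fold change of 0.054 had a 95% interval of -0.32 to 0.43.

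Rab3 GTPases mark vesicles for docking, and the family held the 1 gene that rose. Rab3b (chromosome 4, 108551675 to 108615929 on mm9) was at 16.4 and 12.1 FPKM in cKO libraries, against 7.85 and 7.61 FPKM in Ctrl libraries. It averaged 14.3 ± 3.06 FPKM in cKO libraries and 7.73 ± 0.172 FPKM in Ctrl libraries (SD, n = 2 each). Its log2 fold change was 0.79 ± 0.16 (SE, limma adjusted p = 5.39e-04, 95% interval 0.47 to 1.11). Both cKO libraries lay well above both Ctrl libraries, and the gap between the cKO libraries was wider than that between the Ctrl libraries. The call was lost without cKO 1 (0.59 ± 0.20, limma adjusted p = 0.105), with no filter on low values (limma adjusted p = 0.106) and with all transcripts of a gene summed (limma adjusted p = 0.108). Rab3b has 1 transcript, so its own values were the same with no filter and with transcripts summed. Over all genes, 22 and 23 rose with these settings, against 533 with the settings of the report. The Rab3b call was also lost in the test over single transcripts, in which its 1 transcript had the same fold change (limma adjusted p = 0.160). That test pooled the spread less (3.82 prior degrees of freedom, against 36.3 in the test over genes). Over the alternatives in which its value was kept, the limma adjusted p of Rab3b lay between 1.01e-05 and 0.160. The fit with crossed replicate numbers and the alternatives for single transcripts are not among them. Rab3a, the main form in brain, was at 330.3 and 256 FPKM in cKO libraries and 219 and 258 FPKM in Ctrl libraries (0.29 ± 0.22, limma adjusted p = 0.464). Rab3c was at 24.6 and 25.3 FPKM in cKO libraries and 27.1 and 18.9 FPKM in Ctrl libraries (0.13 ± 0.17, limma adjusted p = 0.682). Rab3a and Rab3c overlapped between the groups. Rab3b stayed a small part of the family, at 4.42% and 4.12% of the summed FPKM in cKO libraries, against 3.09% and 2.67% in Ctrl libraries.

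The active zone genes encode large scaffolds and priming factors and were measured at low FPKM. Of the 6, 4 lay above 0 and 2 below, with a median of 0.22, and none passed. Unc13a, Munc13-1, which primes vesicles for fusion, was at 21.2 and 18.9 FPKM in cKO libraries, against 16.2 and 14.7 FPKM in Ctrl libraries (0.35 ± 0.15, limma adjusted p = 0.148). Its paralog Unc13b was at 2.74 and 3.11 FPKM in cKO libraries, against 3.26 and 3.50 FPKM in Ctrl libraries (-0.16 ± 0.15, limma adjusted p = 0.569). These paralogs did not overlap between the groups, beside 24.3% of all genes wholly above the Ctrl libraries and 29.3% wholly below. They differed in direction, so that Unc13a made up 88.5% and 85.9% of the pair in cKO libraries, against 83.2% and 80.8% in Ctrl libraries.

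Rims1, a Rab3-binding scaffold, was at 8.97 and 8.27 FPKM in cKO libraries, against 7.54 and 5.69 FPKM in Ctrl libraries (0.35 ± 0.15, limma adjusted p = 0.153). Rims2 was at 7.35 and 8.01 FPKM in cKO libraries and 9.54 and 7.49 FPKM in Ctrl libraries (-0.13 ± 0.15, limma adjusted p = 0.676). Rims1 made up 55.0% and 50.8% of the pair in cKO libraries, against 44.1% and 43.2% in Ctrl libraries. Bsn, bassoon, was at 8.50 and 7.81 FPKM in cKO libraries, against 6.53 and 5.86 FPKM in Ctrl libraries (0.35 ± 0.15, limma adjusted p = 0.138). Its relative Pclo, piccolo, overlapped, at 5.11 and 5.58 FPKM in cKO libraries and 5.45 and 4.50 FPKM in Ctrl libraries. Differences between paralogs within a family were not tested, and an exact permutation test of 2 against 2 libraries cannot go below p = 0.333.

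**Figure D4:**
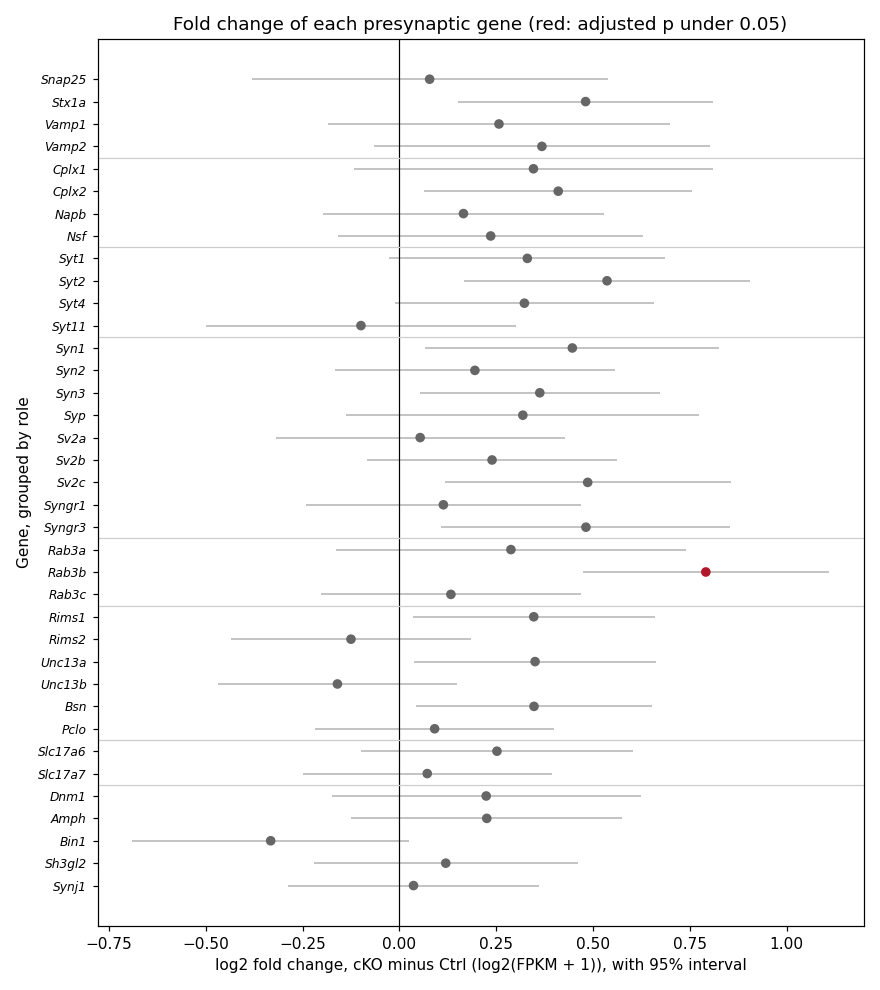
Log2 fold change, cKO minus Ctrl, of each of the 37 genes with its 95% interval from limma, grouped by role. Rab3b, in red, at 0.79 is the gene past the adjusted threshold; 33 points lie right of 0, and Syt11, Rims2, Unc13b and Bin1 lie left of it.

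The vesicular glutamate transporters fill vesicles with glutamate, Slc17a6 (VGLUT2) in most glutamatergic neurons of the spinal cord and Slc17a7 (VGLUT1) chiefly in primary sensory and corticospinal axons, whose cell bodies lie outside the cord. Slc17a6 was at 52.7 and 46.3 FPKM in cKO libraries and 47.9 and 35.6 FPKM in Ctrl libraries, and overlapped (0.25 ± 0.17, limma adjusted p = 0.399). Slc17a7 was just above the filter, at 1.43 and 1.20 FPKM in cKO libraries and 1.33 and 1.07 FPKM in Ctrl libraries (0.072 ± 0.16, limma adjusted p = 0.829). Slc17a6 made up between 97.1% and 97.5% of the pair in each library.

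Genes of vesicle retrieval had the lowest median of the groups of roles, 0.12 over 5 genes, and none passed the test. Dnm1, the neuronal dynamin that pinches vesicles off, was at 169.9 and 142 FPKM in cKO libraries, against 132 and 134 FPKM in Ctrl libraries (0.22 ± 0.20, limma adjusted p = 0.531). Amph, amphiphysin, was at 63.8 and 55.0 FPKM in cKO libraries and 55.0 and 46.4 FPKM in Ctrl libraries, with cKO 2 and Ctrl 1 at nearly the same level. Sh3gl2, endophilin A1, was at 55.5 and 50.1 FPKM in cKO libraries and 50.1 and 46.8 FPKM in Ctrl libraries. Synj1, the lipid phosphatase synaptojanin 1 that helps shed the clathrin coat, was at 23.4 and 21.8 FPKM in cKO libraries and 25.0 and 19.4 FPKM in Ctrl libraries (0.036, 95% interval -0.29 to 0.36). Synj1 and Sh3gl2 overlapped between the groups.

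Bin1, amphiphysin 2, had the lowest fold change of the 37, and its transcripts ran in opposite directions. The gene sum was at 63.9 and 56.3 FPKM in cKO libraries, against 70.3 and 81.6 FPKM in Ctrl libraries (-0.33 ± 0.18, limma adjusted p = 0.246). Its shorter transcript NM_001083334 (2122 bases) was at 19.9 and 23.8 FPKM in cKO libraries, against 42.8 and 50.8 FPKM in Ctrl libraries, a log2 fold change of -1.07 ± 0.16. The longer transcript NM_009668 (2455 bases) was at 44.0 and 32.5 FPKM in cKO libraries, against 27.5 and 30.7 FPKM in Ctrl libraries (0.37 ± 0.18). Neither transcript overlapped between the groups, and the longer one was the more abundant in both cKO libraries while the shorter one was the more abundant in both Ctrl libraries.

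In the GENCODE M21 annotation (GRCm38), the longer Bin1 transcript has 4 coding exons that the shorter lacks, with 333 coding bases in all, equal to the difference in length between them. Neurons are known to make long forms of this protein that bind clathrin and its adaptors, while other cells, oligodendrocytes among them, make shorter forms. The longer transcript held 68.9% and 57.7% of Bin1 FPKM in cKO libraries, against 39.2% and 37.7% in Ctrl libraries, a mean difference of 24.9 percentage points. Of 1830 genes with 2 transcripts in the tables, 7.76% had a share that differed by at least 20 points without overlap, and Bin1 was the 1 of 11 such presynaptic genes. Tested one by one over 15236 transcripts, the shorter form did not pass (limma adjusted p = 0.103) and neither did the longer (limma adjusted p = 0.381), beside 0.0853% of transcripts that fell and 0.0328% that rose. With the transcript of the highest mean over the 4 libraries standing for each gene, the shorter form fell at the same fold change (limma adjusted p = 0.00608). That choice was close, as the shorter form averaged 21.8 FPKM in cKO and 46.8 FPKM in Ctrl libraries, and the longer 38.2 and 29.1 FPKM. Without Ctrl 1 the log2 fold change of the shorter form was -1.19 ± 0.21 in the test over single transcripts. Over the alternatives for single transcripts, the limma adjusted p of the shorter form ran from 0.0333 to 0.381. Oligodendrocyte markers were lower in the same libraries, and their part in the level of the shorter form was not tested.

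**Figure D5:**
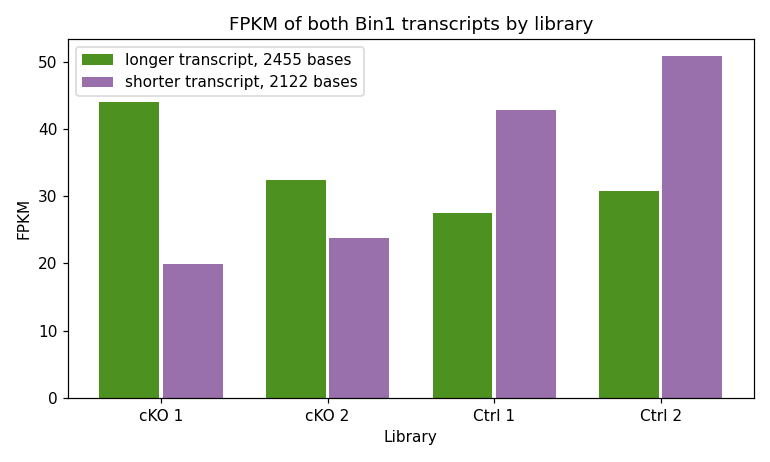
FPKM of both Bin1 transcripts in each library, as bars from 0. The shorter transcript is at 19.9 and 23.8 FPKM in the cKO libraries and at 42.8 and 50.8 FPKM in the Ctrl libraries, while the longer one is at 44.0 and 32.5 FPKM in cKO and 27.5 and 30.7 FPKM in Ctrl.

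Of the 37 genes, 12 were listed with several transcripts, which share reads, so that their split is an estimate. Vamp1 was almost wholly NM_009496, at 98.4% and 97.8% in cKO libraries, against 96.9% and 96.5% in Ctrl libraries. The other form, NM_001080557, has 351 coding bases in GENCODE M21, against 354 in NM_009496, and lacks 1 coding exon of that form, of 14 bases. NM_001080557 was at 4.65 and 5.28 FPKM in cKO libraries, against 7.29 and 7.56 FPKM in Ctrl libraries (-0.50 ± 0.14, limma adjusted p = 0.198 over transcripts). The split of Rims1 over 5 transcripts was unstable between libraries of 1 group, with NM_001012624 at 29.2% in Ctrl 1 and 2.60% in Ctrl 2, so only its sum is used. For the other genes with 2 transcripts the mean share differed by at most 5.79 percentage points (Syn1), and 4 of 11 genes, Bin1 and Vamp1 among them, had shares that did not overlap, beside 39.9% of the 1830 genes.

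Of 52 other genes of vesicle release tested, 8 rose and 2 fell, beside 4.13% and 6.54% of all genes. Of the 52, 41 lay above 0, beside 49.5% of all genes, and the median was 0.22. The difference between these genes and the 37 was not tested. Syt17, a synaptotagmin-like protein, was at 11.9 and 8.24 FPKM in cKO libraries, against 4.36 and 4.22 FPKM in Ctrl libraries, and had the largest rise of them (1.05 ± 0.16, limma adjusted p = 1.10e-05). Rab3d, the fourth Rab3 gene, was at 3.25 and 2.71 FPKM in cKO libraries, against 1.78 and 1.496 FPKM in Ctrl libraries (0.59 ± 0.16, limma adjusted p = 0.00950). The short Rim proteins Rims3 and Rims4 rose by 0.55 and 0.62 on the log2 scale. Doc2b, a calcium sensor of slow and spontaneous release, rose by 0.51, as did Syt13. The vesicular transporters of acetylcholine and of GABA and glycine, Slc18a3 and Slc32a1, rose by 0.54 and 0.58.

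The 2 release genes that fell were Syngr2 and Cacnb4. Syngr2, a synaptogyrin common outside neurons, was at 9.99 and 10.5 FPKM in cKO libraries, against 12.9 and 17.6 FPKM in Ctrl libraries (-0.51 ± 0.16, limma adjusted p = 0.0279), where its listed paralogs Syngr1 and Syngr3 lay above 0. Cacnb4, a calcium channel subunit, was at 11.5 and 13.8 FPKM in cKO libraries, against 19.6 and 16.3 FPKM in Ctrl libraries (-0.47 ± 0.16, limma adjusted p = 0.0438). The count of 8 release genes that rose became 1 without cKO 1 and with the highest transcript per gene, 2 with TPM scaling, 3 without Ctrl 2 and with quantile scaling, and 12 without cKO 2.

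Among 30 further recycling genes, none rose and 2 fell, beside 4.13% and 6.54% of all genes, so the count that fell was at the background. Their median was 0.00496. At an unadjusted limma p under 0.05, 1 of them was higher and 5 were lower, beside 10.4% and 13.8% of all genes. Synj2, the paralog of Synj1, was at 2.39 and 3.13 FPKM in cKO libraries, against 5.99 and 4.99 FPKM in Ctrl libraries (-0.79 ± 0.16, limma adjusted p = 5.04e-04). Sh3gl3, endophilin A3, was at 35.4 and 40.8 FPKM in cKO libraries, against 64.9 and 65.9 FPKM in Ctrl libraries (-0.77 ± 0.17, limma adjusted p = 0.00173). Both lay wholly below the Ctrl libraries, while Synj1 and Sh3gl2 overlapped between the groups. Without cKO 1 neither passed (limma adjusted p = 0.0573 and 0.0629).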

How the data were processed

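Each of the 4 deposited tables holds FPKM, made by the authors and laid out as Cufflinks writes it, per the file headers, with 28107 rows of RefSeq transcripts. The deposited coverage signal served only to compare depth between libraries. The submitters' processing notes list CASAVA, TopHat, Cufflinks, Cuffdiff and the build mm9, with no versions. Total reads per library are unknown.

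The 315 rows not marked OK throughout were left out, and FPKM was summed per symbol over rows of at least 300 bases. Genes with a mean of at least 1 FPKM were tested as log2(FPKM + 1), cKO against Ctrl, with limma 3.58.1 in R 4.3.3 (empirical Bayes with a mean-variance trend), with Benjamini-Hochberg adjustment over all genes. The spread had 36.3 prior and 2 residual degrees of freedom, so it is mostly pooled over genes. Values of single transcripts were tested after the data had been seen. That fit had 3.82 prior degrees of freedom, so its adjusted p-values are not like for like with those of genes. The members, lists and tests were chosen with earlier results of these data known. All members, Chd7 and the pathway genes past the threshold are named. The reference tables held no proteins, so no protein comparison was made. Coordinates are on mm9, starts counted from 1; promoters are RefSeq windows on GRCm38.p6, matched by symbol.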

Additional observations from a re-analysis of the deposited data

How the results depend on the processing

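The count of members that rose, 1 with the settings of the report, was 0 with no filter and with all rows of a gene summed, and 4 with a mean FPKM of at least 5 and with robust moderation (Rab3b, Stx1a, Syt2 and Sv2c in both); leaving out 1 library it ran from 0 to 4. No member fell except 1, Bin1, with the highest row per gene, and leaving out 1 library the count was 0 throughout. The median of the members stayed above 0 in each alternative run, from 0.11 to 0.38 without 1 library and at 0.17 with quantile scaling. With 1 library left out, between 21 and 31 members lay wholly above the Ctrl libraries and between 3 and 6 below; a lone library is then assumed to vary like the others.

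Over all genes, 533 rose and 845 fell with the settings of the report. With a mean FPKM of at least 5, which left fewer genes in the test, 442 rose and 589 fell. With robust moderation 662 of the 12913 genes rose and 992 fell, so more genes were called there as well. The counts were 22 and 33 with no filter, 303 and 416 with quantile scaling, and 259 and 470 with TPM scaling. They were 23 and 30 with all rows summed, and 179 and 408 with the highest row per gene. Without 1 library between 107 and 555 rose and between 277 and 900 fell. The cause of these shifts was not tested.

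Of the other release genes, 0 rose and 0 fell with no filter and with all rows summed, 5 and 0 with median-of-ratios scaling, 3 and 0 with quantile scaling, 2 and 0 with TPM scaling, and 1 and 0 with the highest row; 1 fell without the mean-variance trend. Without 1 library, 1 to 12 rose and 0 to 2 fell. Of the other recycling genes, 0 fell with no filter and with all rows summed, 1 with a mean FPKM of at least 5, and 0 to 2 without 1 library.

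The replicate numbers are not stated to pair samples, and deviations of same-numbered libraries correlated at -0.24 across genes. With a replicate block 351 genes rose over all genes, and 4 and 0 of the other release genes rose and fell. With the numbers crossed, added after the data were seen, 6 members, 943 genes and 19 other release genes rose.

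Members near 0 changed sign under some settings. With quantile scaling the log2 fold changes of Snap25 and Sv2a were -0.084 and -0.047. Leaving out 1 library, that of Snap25 ran from -0.016 to 0.17, of Napb from -0.085 to 0.42, of Sv2a from -0.093 to 0.20, of Syngr1 from -0.078 to 0.30, of Rab3c from -0.11 to 0.38, of Rims2 from -0.28 to 0.031, of Pclo from -0.025 to 0.21, of Slc17a7 from -0.012 to 0.16 and of Synj1 from -0.14 to 0.21. Ctrl 2 was the shallowest library, which limits the precision of low genes there.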
